A study of Mus musculus and Homo sapiens with 33 samples.

Results

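The genes described here are 9 members of the transforming growth factor beta (TGF-beta) pathway, measured in KPL cells, a murine lung adenocarcinoma line. They are the ligand genes Tgfb1, Tgfb2 and Tgfb3, the receptor genes Tgfbr1 and Tgfbr2, the signal transducer gene Smad3, and Smad7, Skil and Thbs1, which are inhibitors, an activator or targets of the pathway. They were chosen by symbol, each matched 1 Ensembl gene of the deposited count matrix, and all 9 of its 38924 genes had enough reads to be tested. The tested group was given 4-hydroxytamoxifen (4-OHT) (dose given as 10 nm) for 72 hours, which per the labels deletes Lin9, a core subunit gene of the MuvB complex that controls cell cycle transcription. The control group is labelled EtOH (ethanol) and ctrl. There were 3 libraries of polyadenylated RNA per group, all from cells grown in medium with fetal calf serum, and no library is labelled as given TGF-beta or a receptor inhibitor. The sources used here do not give the alleles of the line or the source of the recombinase, and because 4-OHT treatment and Lin9 deletion came together in these libraries, their effects cannot be told apart. The 27 ChIP-seq samples of the series were not analysed here.

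TGF-beta ligands are secreted in a latent form, bound to their own propeptide and to latent TGF-beta binding proteins in the matrix, and are freed by integrins, proteases or thrombospondin 1. The active ligand brings the type II receptor (Tgfbr2) and the type I receptor (Tgfbr1) together, the type I receptor phosphorylates SMAD2 and SMAD3, and these enter the nucleus with SMAD4 to switch genes on or off. Among the genes switched on are Smad7 and Skil, whose products restrain the pathway. In epithelial cells the pathway slows division, and in carcinoma cells it can drive a mesenchymal gene program.

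Within the pathway, 2 of the 9 genes changed, in opposite directions. Thbs1, which encodes thrombospondin 1, was lower after 4-OHT and Smad3 was higher, whereas the ligand and receptor genes, Smad7 and Skil did not pass the test. The tests compared the groups with edgeR's quasi-likelihood test over 13355 genes, and a gene is called here when its Benjamini-Hochberg adjusted p is under 0.05. Of all genes tested 9.79% were called, 5.17% lower and 4.61% higher, against 22.2% of these 9 genes, which is 2 genes and no result about the list. DESeq2, which called 4.53% of the genes it tested, called 1 of the 8 to which it gave an adjusted p. The changes were modest in size, as Thbs1 fell by 19.3% and Smad3 rose by 14.4%. Library totals lay between 5859826 and 5913942 reads. No label says that the replicates came from separate cultures, and the p-values then reflect only how these libraries vary, possibly for technical reasons. Lin9 itself stood at 18.3, 18.1 and 17.1 CPM in the 4-OHT libraries, against 26.7, 21.3 and 27.3 CPM in the control libraries, where CPM is the read count scaled to a common library size. Lin9 was called lower (edgeR adjusted p = 0.0011, log2 fold change -0.49, SE 0.11), and its count over the whole gene, which includes any exons outside a deleted part, stayed well above 0. How complete the deletion was cannot be told from these counts.

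**Figure D1:**
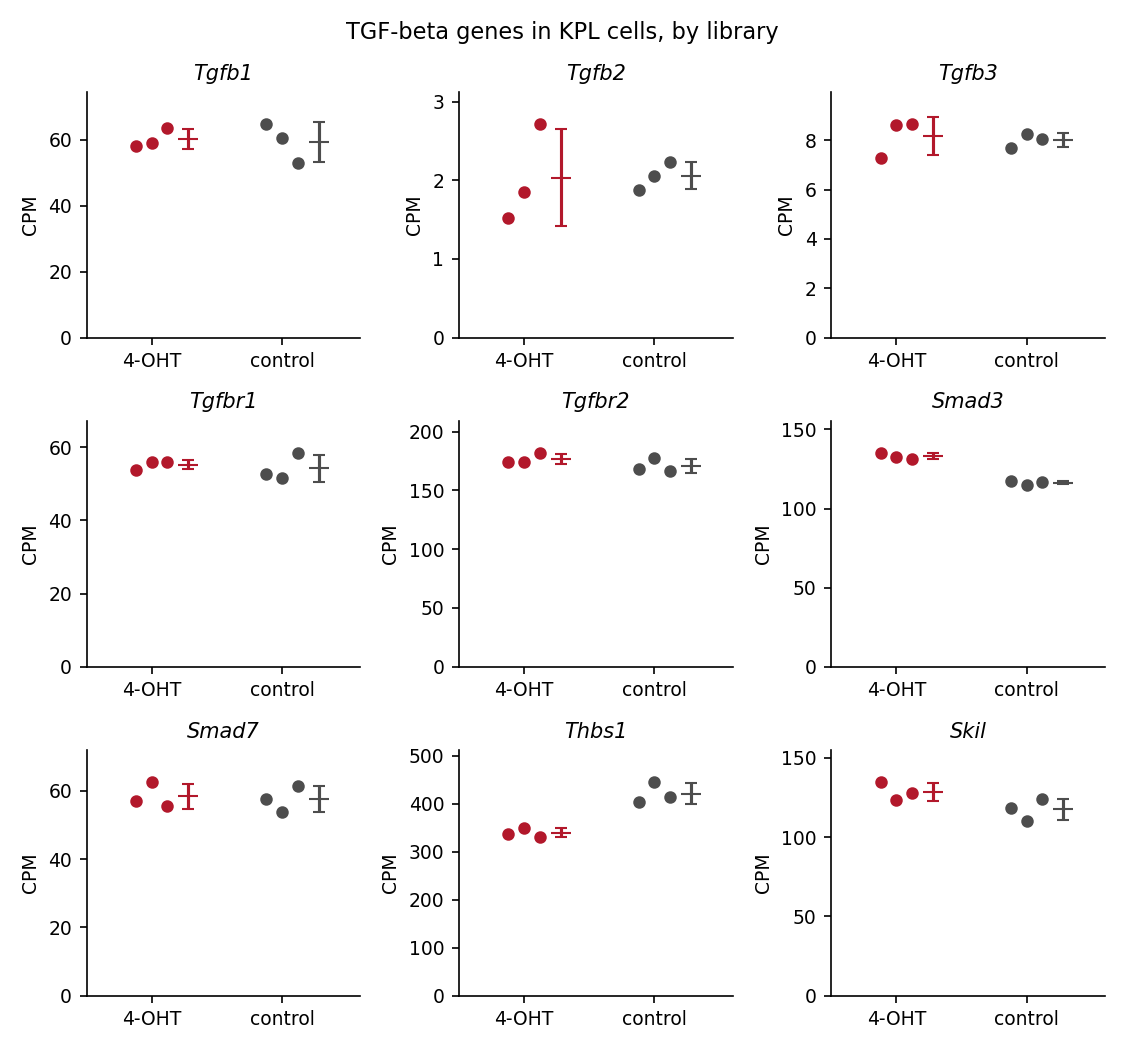
Expression of the 9 TGF-beta genes in CPM (y axis, from 0, a scale of its own in each panel) in the 4-OHT and control libraries (x axis). Each point is 1 library and the bars give the mean ± SD of 3 libraries. Thbs1 lies lower and Smad3 higher in all 3 4-OHT libraries, and in the other 7 panels the groups overlap. Of all genes tested, 24.3% had groups that do not overlap.

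Promoter sequence from RefSeq was at hand for 5 of the 9 genes. The stretches shown are the 250 bases before the annotated start of Smad3, the member that was higher, and of the receptor genes Tgfbr1 and Tgfbr2, which were not called. They were searched on both strands for CAGAC, the SMAD binding element, for GGCGCC, a GC-rich SMAD element, for TTTGAA, the CHR element through which MuvB complexes bind cell cycle promoters, and for GGAATG, the element of the YAP partner TEAD. Capitals mark a match, and none of these motifs shared bases in the stretches printed. Tgfbr1 has another annotated start, whose stretch is not shown and holds a CAGAC 203 bases before that start. In build GRCm38.p6 the stretches are chr9:63757995-63758244 on the minus strand for Smad3, chr4:47352972-47353221 on the plus strand for Tgfbr1 and chr9:116175364-116175613 on the minus strand for Tgfbr2.
Smad3: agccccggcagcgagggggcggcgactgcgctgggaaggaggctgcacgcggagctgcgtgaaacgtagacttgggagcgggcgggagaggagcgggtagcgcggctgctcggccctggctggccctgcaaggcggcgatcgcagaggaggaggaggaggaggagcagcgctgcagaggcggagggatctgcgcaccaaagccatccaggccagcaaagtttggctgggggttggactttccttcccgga
Tgfbr1: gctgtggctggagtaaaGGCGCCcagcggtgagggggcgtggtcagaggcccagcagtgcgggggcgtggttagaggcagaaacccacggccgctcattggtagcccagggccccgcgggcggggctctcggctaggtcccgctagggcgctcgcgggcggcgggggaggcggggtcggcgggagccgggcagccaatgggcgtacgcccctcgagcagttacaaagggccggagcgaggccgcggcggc
Tgfbr2: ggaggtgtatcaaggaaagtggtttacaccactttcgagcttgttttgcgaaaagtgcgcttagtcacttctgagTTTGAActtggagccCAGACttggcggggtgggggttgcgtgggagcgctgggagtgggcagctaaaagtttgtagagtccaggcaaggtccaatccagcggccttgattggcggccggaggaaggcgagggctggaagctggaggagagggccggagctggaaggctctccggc

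The Smad3 stretch holds 0 matches to these letters and is rich in G and C (69.2%). That of Tgfbr1 has a GGCGCC that begins 233 bases before the start, and that of Tgfbr2 has a TTTGAA at 175 and a CAGAC at 160 bases before it. Among 32851 promoter stretches of the same length, 42.2% hold CAGAC, 16% TTTGAA, 12.6% GGAATG and 9.59% GGCGCC on either strand, so a match in a single stretch is common. Of the 2 other genes with a stretch, Tgfb1 has a TTTGAA on the reverse strand 29 bases before its start, and Tgfb2 has CAGAC at 221 and 204 bases before a start that lies inside the annotated gene, not at its outer end. A match describes these letters only, and no binding data were used here.

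Among the ligands, Tgfb1 took most of the reads and none of the 3 genes was called. Tgfb1 (ENSMUSG00000002603, chromosome 7, 25687002 to 25705077), the isoform that dominates in most tissues, stood at 58.2, 58.9 and 63.6 CPM in the 4-OHT libraries, against 64.7, 60.5 and 52.8 CPM in control. The control libraries spread more widely than the 4-OHT libraries and enclose their range. On the log2 scale, 4-OHT over control was 0.02 (SE 0.07, edgeR adjusted p = 0.911), with a 95% interval of -0.12 to 0.16. A change of Tgfb1 by more than 1.12-fold upward or below 0.923 times control therefore lies outside the interval.

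The other ligand genes were counted at low depth, and little can be said about changes in them. Tgfb3 (chromosome 12, 86056743 to 86079041), an isoform known for its role in palate and lung development, had 43, 51 and 51 reads after 4-OHT, against 45, 48 and 47 reads in control. The 95% interval of its log2 fold change, which was 0.03, runs from -0.32 to 0.38. Tgfb2 (chromosome 1, 186622787 to 186709697), an isoform needed for heart and skeletal development, had only 9, 11 and 16 reads after 4-OHT and 11, 12 and 13 in control. Its interval of -0.71 to 0.68 leaves room for a fall to 0.611 times or a rise to 1.6 times the control level, so a change of that size was not detectable at this depth. For Tgfb2 the spread between 4-OHT libraries was 30.2% of the mean, close to the 28.9% that counting alone gives at this depth. Between control libraries it was 8.4%, below that value.

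The mix of ligand reads differed between the groups by less than the SD between libraries. Tgfb1 took 85.5% ± 1.13 of the reads of the 3 ligand genes after 4-OHT and 85.4% ± 1.70 in control, Tgfb3 took 11.6% ± 0.764 and 11.6% ± 1.20, and Tgfb2 took 2.86% ± 0.689 and 2.99% ± 0.504 (SD, n = 3 each). Each library held 368 to 442 ligand reads. These are shares of reads and were not divided by transcript length, so they do not rank the transcripts by number of molecules.

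**Figure D2:**
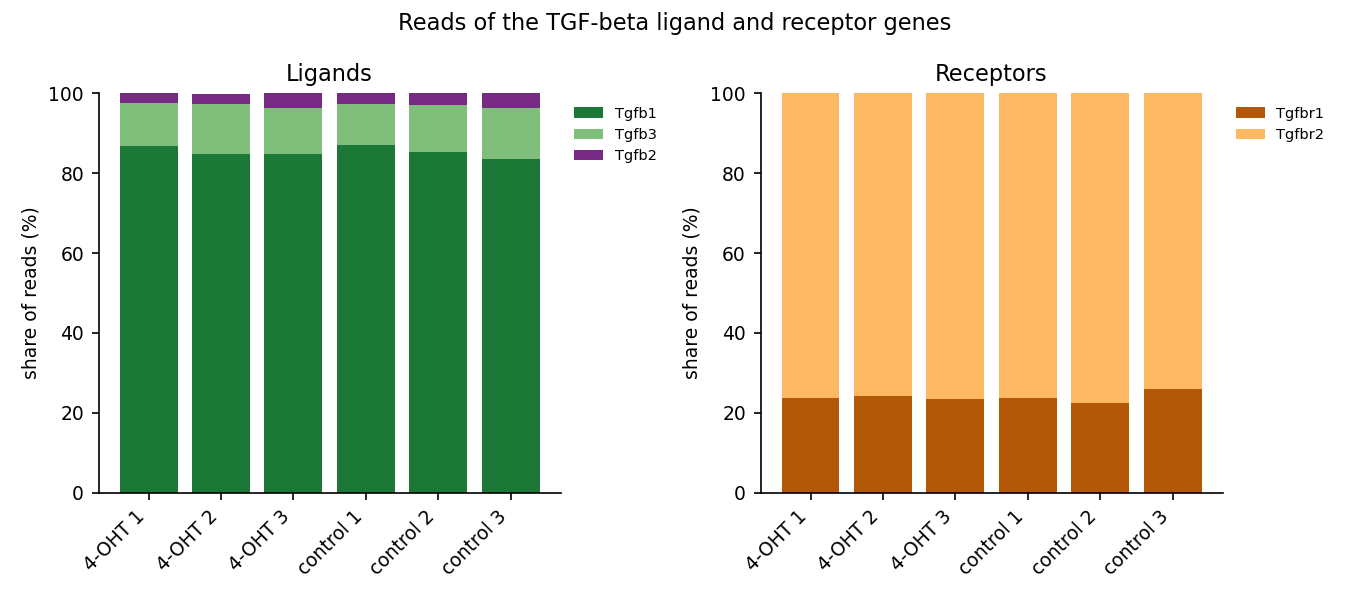
Share of reads (y axis, %) in each library (x axis, 4-OHT libraries left of control). The left panel divides the reads of Tgfb1, Tgfb3 and Tgfb2 and the right panel those of Tgfbr1 and Tgfbr2. Tgfb1 takes 83.7% to 87.1% and Tgfbr1 22.5% to 26.0% in the 6 libraries.

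Neither receptor gene was called. Tgfbr1 (ENSMUSG00000007613, chromosome 4, 47353222 to 47414926), the kinase that phosphorylates SMAD2 and SMAD3, stood at 53.9, 56.0 and 56.0 CPM after 4-OHT, against 52.7, 51.5 and 58.5 CPM in control. Tgfbr2 (ENSMUSG00000032440, chromosome 9, 116087695 to 116175363), the receptor kinase that binds the ligand first, stood at 174, 174.6 and 181.8 CPM, against 168.6, 177.2 and 166.4 CPM in control. In both genes the lowest 4-OHT library lay within the control range. The log2 fold change was 0.03 for Tgfbr1 (95% interval -0.11 to 0.17, edgeR adjusted p = 0.883). For Tgfbr2, the more deeply counted of the pair, it was 0.05 (-0.04 to 0.14, adjusted p = 0.577). Tgfbr1 took 23.8% ± 0.396 of the reads of the receptor pair after 4-OHT, against 24.1% ± 1.75 in control (SD, n = 3 each).

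Smad3, which encodes the receptor-activated SMAD that binds DNA directly, was higher after 4-OHT. Smad3 (ENSMUSG00000032402, chromosome 9, 63646766 to 63757994) had 797, 787 and 774 reads after 4-OHT, against 685, 670 and 681 in control. In CPM these are 135.1, 132.8 and 131.4 after 4-OHT, against 117.2, 115.1 and 116.7 in control. The groups do not overlap, which was the case for 24.3% of all genes tested, and the libraries of each group lie close together. Smad3 averaged 133.1 ± 1.92 CPM after 4-OHT and 116.3 ± 1.14 CPM in control (SD, n = 3 each). On the log2 scale it was higher by 0.19 (SE 0.05, 95% interval 0.10 to 0.29, edgeR adjusted p = 0.0031). The spread between its libraries, 1.44% and 0.982% of the mean, was below the 3.70% that counting alone gives, and edgeR draws its error from all genes. DESeq2 gave the same size of change but no call (0.19, adjusted p = 0.067), while the call held without any 1 of the 6 libraries (edgeR adjusted p 0.0055 to 0.019).

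Most of the remaining SMAD genes did not pass. Of the other 6 SMAD genes tested 1 was called (16.7%, against 9.79% of all genes tested), Smad1, a transducer of BMP signals, which averaged 51.5 ± 3.06 CPM after 4-OHT and 44.2 ± 1.61 CPM in control (SD, n = 3 each; log2 fold change 0.22, SE 0.07, edgeR adjusted p = 0.041). That call was lost without any 1 of 5 libraries, namely 4-OHT replicates 1 and 2 and control replicates 1, 2 and 3 (adjusted p 0.071 to 0.222), and in DESeq2 (0.321). Smad2, the partner of Smad3 under the same receptor, stood at 58.3 ± 1.84 CPM after 4-OHT and 55.5 ± 2.99 CPM in control (log2 fold change 0.07, SE 0.07). Smad4, the shared co-SMAD, stood at 82.4 ± 1.58 and 83.6 ± 5.51 CPM (log2 fold change -0.02, SE 0.06). The median log2 fold change over the 6 was 0.07, against 0.0005 over all genes tested.

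Smad7 and Skil are both transcribed in response to TGF-beta in many cells and both dampen it. Smad7 (ENSMUSG00000025880, chromosome 18, 75367365 to 75395935), whose product blocks the type I receptor, stood at 57.0, 62.6 and 55.5 CPM after 4-OHT, against 57.7, 53.9 and 61.4 CPM in control. The values of the groups are interleaved. Its log2 fold change was 0.02 (SE 0.07, 95% interval -0.12 to 0.15, edgeR adjusted p = 0.928). Skil (ENSMUSG00000027660, chromosome 3, 31095058 to 31122923) encodes SnoN, a co-repressor that binds SMAD complexes on DNA. It stood at 134.8, 123.5 and 128.1 CPM after 4-OHT, against 118.6, 110.4 and 123.8 CPM in control. The lowest 4-OHT library of Skil lies just under the highest control library, and the other libraries are separate. The log2 fold change of Skil was 0.13 (SE 0.05), with a 95% interval of 0.03 to 0.23 that leaves out 0, but Skil did not pass after adjustment over all genes (edgeR adjusted p = 0.089). The adjusted p of Skil lay between 0.055 without control replicate 3 and 0.416 without control replicate 2.

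**Figure D3:**
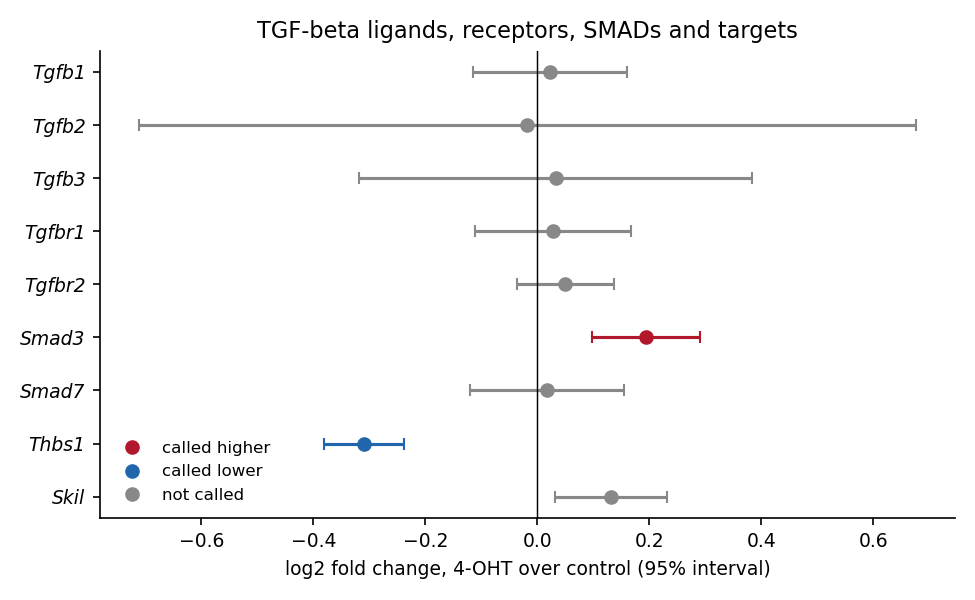
Log2 fold change of 4-OHT over control (x axis) for each of the 9 genes (y axis). Points are edgeR estimates from 3 libraries per group and bars their 95% intervals. Smad3 lies at 0.19 and Thbs1 at -0.31, and the widest interval is that of Tgfb2.

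Thbs1 had the most reads of the 9 genes and the largest fall. Thrombospondin 1, a large matrix glycoprotein, can free TGF-beta from its latency propeptide, and its gene is itself induced by TGF-beta and by YAP in several cell types. Thbs1 (ENSMUSG00000040152, chromosome 2, 118111876 to 118127133) had 1987, 2076 and 1952 reads after 4-OHT, against 2355, 2593 and 2413 in control. In CPM these are 336.9, 350.2 and 331.3 after 4-OHT, against 403.1, 445.3 and 413.6 in control. All 3 4-OHT libraries lie well below the lowest control library, and 12.2% of all genes tested had every 4-OHT library below every control library. The log2 fold change was -0.31 (SE 0.04, 95% interval -0.38 to -0.24, edgeR adjusted p = 4.6e-11), so the level after 4-OHT was 0.807 times that of control. The call held in DESeq2 (adjusted p = 8.3e-09) and without any 1 library, where the log2 fold change lay between -0.34 and -0.27. By p-value Thbs1 ranked 91 and Smad3 617 among the 13355 genes tested.

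In the authors' deposited table the same 2 genes stand out. It gives Thbs1 a log2 fold change of -0.31 with an FDR of 4.5e-13, Smad3 one of 0.19 with an FDR of 0.0083 and Skil one of 0.13 with an FDR of 0.152. For the other 6 genes the authors' deposited table gives an FDR between 0.749 and 1. The table was made from the same libraries and is no independent measurement.

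The genes whose products store or free the latent ligand were also examined. Of 14 tested genes of latency and activation, 3 were higher, 1 was lower and 10 did not pass (edgeR; 28.6% called, against 9.79% of all genes tested; median log2 fold change -0.01), and 4 more had too few reads. Plau, the gene of urokinase, a protease that turns plasminogen into plasmin, fell to 190.6, 183.2 and 189.9 CPM after 4-OHT, against 233.8, 236.8 and 236.0 CPM in control (log2 fold change -0.33, SE 0.04, edgeR adjusted p = 4.6e-10). Mmp14, which encodes a membrane-bound metalloprotease, stood higher, at 193.1 ± 9.12 CPM after 4-OHT and 161.4 ± 2.15 CPM in control (log2 fold change 0.26, SE 0.04). Plat, the gene of tissue plasminogen activator, was also higher, at 38.2 ± 3.14 and 27.6 ± 3.05 CPM (log2 fold change 0.47, SE 0.09; SD, n = 3 each for both genes). The plasminogen activator genes Plau and Plat thus changed in opposite directions.

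Ltbp3, a latent TGF-beta binding protein gene named after its value was seen, averaged 285.0 ± 12.1 CPM after 4-OHT and 257.5 ± 4.81 CPM in control (SD, n = 3 each; log2 fold change 0.15, edgeR adjusted p = 0.0046). Ltbp3 did not pass without 4-OHT replicate 2 (adjusted p = 0.086) or control replicate 1, and in DESeq2 (0.079). Ltbp1 stood at 188.7 ± 4.43 CPM and 191.9 ± 2.72 CPM (log2 fold change -0.02, SE 0.04). The integrin gene Itgav, whose product pulls on latent TGF-beta, was at 231.1 ± 9.14 CPM after 4-OHT and 249.0 ± 10.5 CPM in control and did not pass (log2 fold change -0.11, adjusted p = 0.072). Its partner for latent TGF-beta, Itgb6, stood at 14.3 ± 1.41 and 13.4 ± 2.58 CPM. Ltbp1, Itgav and Itgb6 were named after their values were seen.

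Of 6 other genes of the thrombospondin family and its receptors, 5 had too few reads. The tested one, Cd47, a thrombospondin 1 receptor gene, stood at 131.6, 123.1 and 118.8 CPM after 4-OHT, against 111.6, 118.3 and 111.2 CPM in control, and did not pass (log2 fold change 0.13, edgeR adjusted p = 0.092). It passed without 4-OHT replicate 3 (adjusted p = 0.045). Among 4 tested co-receptor genes, 1 was higher and 3 did not pass (median 0.18), a single gene where 4.61% of all genes tested were higher. This was Cd109, whose product binds TGF-beta and its receptors and reduces signalling, at 12.9 ± 0.866 CPM after 4-OHT and 8.29 ± 0.483 CPM in control (log2 fold change 0.63, SE 0.16, edgeR adjusted p = 0.0024). Cd109 did not pass in DESeq2 (adjusted p = 0.063).

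Of 16 tested genes of inhibitors and protein turnover, 2 were higher and 14 did not pass (edgeR; median log2 fold change 0.06), so 12.5% were called, near the 9.79% of all genes tested. Nedd4l, a ubiquitin ligase gene whose product marks activated SMAD2 and SMAD3 for destruction, averaged 65.9 ± 2.50 CPM after 4-OHT and 53.0 ± 4.06 CPM in control (log2 fold change 0.31, SE 0.07, edgeR adjusted p = 0.00045). Ppm1a, the gene of a phosphatase reported to act on SMAD2 and SMAD3, averaged 84.4 ± 0.389 and 73.1 ± 0.481 CPM (log2 fold change 0.21, SE 0.06, adjusted p = 0.012; SD, n = 3 each for both genes). The Ppm1a call was lost in DESeq2 (adjusted p = 0.158). Pmepa1, a SMAD-binding inhibitor gene that TGF-beta induces, and Ski, the closest relative of Skil, were named after their values were seen. Pmepa1 stood at 245.9 ± 5.29 CPM after 4-OHT and 227.5 ± 11.5 CPM in control without passing (adjusted p = 0.058), and Ski at 138.8 ± 5.89 and 135.3 ± 5.16 CPM (adjusted p = 0.745).

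A list of 50 genes drawn up as induced by TGF-beta in many cell types was examined next. It includes Id1, Id2 and Id3, which TGF-beta can lower in epithelial cells. How TGF-beta changes the listed genes in KPL cells was not tested. Of the 38 listed genes that had enough reads, 12 were higher, 2 were lower and 24 did not pass (edgeR), so 36.8% were called where 9.79% of all genes tested were. The list was drawn up with earlier results of these data known, so its count is a description. Its median log2 fold change was 0.07, against 0.0005 over all genes tested. In the same libraries 3 of 7 tested epithelial marker genes were lower, where 5.17% of all genes tested were. These were Epcam (171.2 ± 6.76 CPM after 4-OHT and 223.2 ± 2.67 CPM in control), Cdh1 (527.2 ± 1.67 and 580.6 ± 18.2 CPM) and Cldn7 (70.4 ± 9.19 and 85.6 ± 1.30 CPM; SD, n = 3 each). The other 4 did not pass, namely Krt8 (log2 fold change 0.06), Krt19 (0.04), Krt18 (-0.0007) and Nkx2-1 (-0.46). The part of these markers in the count of induced genes was not tested. Among the induced genes DESeq2 called 8 higher and 2 lower, and leaving out 1 library gave 8 to 13 higher and 1 to 2 lower.

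Among the genes above control, Col4a2, a basement membrane collagen gene, stood at 317.6, 350.9 and 324.5 CPM after 4-OHT, against 277.8, 267.2 and 272.7 CPM in control (log2 fold change 0.28, SE 0.04, edgeR adjusted p = 6.2e-09). Col4a1, its partner, lies head to head with it on chromosome 8, and their 300-base promoter windows in RefSeq share 78 bases. Col4a1 averaged 522.7 ± 19.9 CPM after 4-OHT and 470.6 ± 8.22 CPM in control (SD, n = 3 each; log2 fold change 0.15, SE 0.03). Angptl4, a secreted inhibitor of lipoprotein lipase, stood at 78.5, 77.1 and 82.8 CPM, against 61.3, 63.0 and 60.7 CPM in control (log2 fold change 0.37, SE 0.06). Vim, the gene of the intermediate filament vimentin, stood at 3099, 3113 and 3063 CPM after 4-OHT, against 2783, 2819 and 2775 CPM in control (log2 fold change 0.15, SE 0.03). For these 4 genes, chosen because they were called, every 4-OHT library lay above every control library, as for 12.1% of all genes tested.

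The other called members of this list that are described here were named after their values were seen. Above control were Col5a1 (log2 fold change 0.42), a fibrillar collagen gene, Id2 (0.36), a helix-loop-helix inhibitor gene, Ctgf (0.29), a matricellular growth factor gene, and Hmga2 (0.15), a chromatin factor gene. Zeb1 (0.35), a repressor of epithelial genes, Klf10 (0.22), an early TGF-beta response gene, Cdh2 (0.16), the gene of N-cadherin, and Actn1 (0.10), an actin crosslinker gene, were also above control. Of these last 4 none passed in DESeq2 (adjusted p 0.109 to 0.248), and the edgeR call of each was lost without any 1 of 3 to 5 libraries. Spp1, the gene of osteopontin, a secreted matrix protein, was below control (log2 fold change -0.51, SE 0.08). It averaged 401.0 ± 35.3 CPM after 4-OHT and 570.6 ± 39.1 CPM in control (SD, n = 3 each; edgeR adjusted p = 0.024). Spp1 did not pass without 4-OHT replicate 3 (edgeR adjusted p = 0.116) or control replicate 2, although DESeq2 gave it an adjusted p of 2.1e-06.

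Several usual TGF-beta responses in the list did not pass, and these too were named after their values were seen. The cyclin-dependent kinase inhibitor gene Cdkn2b, which carries the growth arrest by TGF-beta in epithelial cells, stood at 70.6 ± 3.27 CPM after 4-OHT and 73.4 ± 3.07 CPM in control (log2 fold change -0.06, SE 0.06). Fn1, the fibronectin gene, stood at 1470.0 ± 143.2 and 1418 ± 27.4 CPM (log2 fold change 0.05, SE 0.08). Junb, an early response gene of the AP-1 family, stood at 153.0 ± 8.57 and 163.7 ± 5.89 CPM (log2 fold change -0.10, SE 0.05; SD, n = 3 each for the 3 genes).

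**Figure D4:**
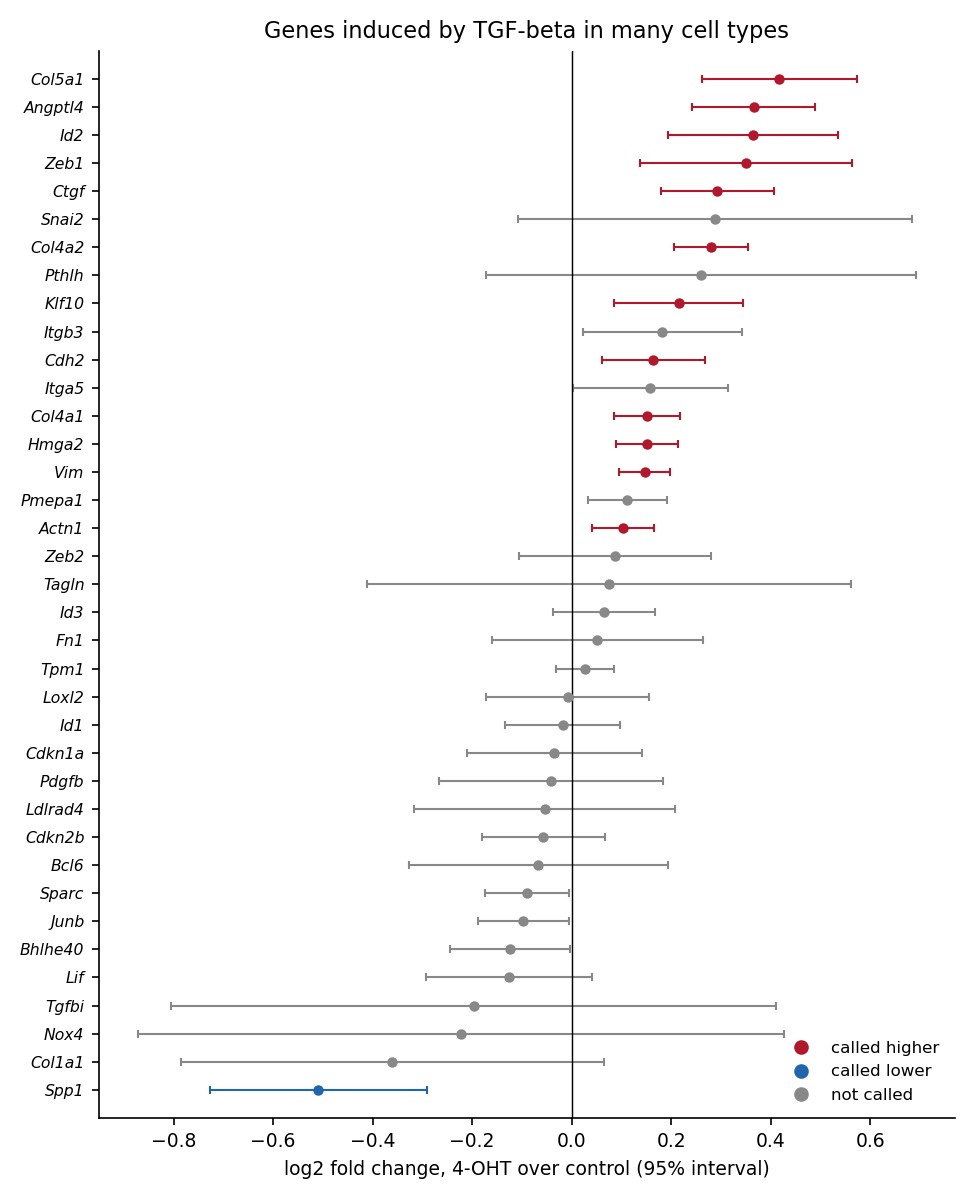
Log2 fold change of 4-OHT over control (x axis) for the tested genes of the list of genes induced by TGF-beta, 1 of them left out (y axis, in order of the change). Points are edgeR estimates from 3 libraries per group, bars their 95% intervals and colours the call. The 12 genes called higher lie between 0.10 and 0.42, and Spp1 lies lowest, at -0.51.

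In the neighbouring activin and BMP branch, 14 of 35 listed genes had enough reads, and of these 1 was higher and 13 did not pass (median 0.04), so 7.14% were called, near the 9.79% of all genes tested. Inhba, which encodes the subunit of activin A, another ligand that signals through SMAD2 and SMAD3, stood at 30.4, 28.2 and 24.6 CPM after 4-OHT, against 17.0, 20.3 and 20.4 CPM in control. Every 4-OHT library lay above every control library, as for 12.1% of all genes tested. The change of Inhba, 0.53 on the log2 scale (SE 0.11, edgeR adjusted p = 0.00022), was larger than that of any of the 9 genes. Its call held in DESeq2 (adjusted p = 0.014) and without any 1 library (edgeR adjusted p up to 0.013). Acvr1b, the type I receptor gene for activin, named after its value was seen, stood at 61.7 ± 2.50 CPM after 4-OHT and 56.7 ± 3.19 CPM in control (SD, n = 3 each) and did not pass (adjusted p = 0.295). Of the 13 genes that did not pass, the receptor gene Acvr1 came nearest (log2 fold change 0.21, edgeR adjusted p = 0.065). Its groups overlap, and it too was named after its value was seen.

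Over the 6 libraries, the genes whose level ran most like that of Smad3 were Ppm1a, Ugcg, a glucosylceramide synthase gene, and Cdh2. The measure was the root-mean-square distance between log2 CPM values after centring, out of 9875 named genes with a mean of at least 5 CPM, and it was 0.012, 0.017 and 0.018 log2 units for Ppm1a, Ugcg and Cdh2. Nearest to Thbs1 were Cep55, a gene of the last step of cytokinesis, Gpc4, a cell surface proteoglycan gene, and Celsr2, an atypical cadherin gene, at distances of 0.031, 0.031 and 0.033. Of these, Cep55 was lower (log2 fold change -0.32, edgeR adjusted p = 2.8e-05), while Gpc4 (-0.30, adjusted p = 0.138) and Celsr2 (-0.31, 0.148) did not pass. For Ppm1a, Ugcg and Cdh2 the spread within each group was below the 4.65%, 3.32% and 4.035% of the mean that counting alone gives. Counting alone gives 10.7% for Gpc4 and 10.98% for Celsr2. Which of the 9875 candidates came nearest can therefore rest on counting noise. Whether the named genes share more with Smad3 or Thbs1 than a change of similar size was not tested.

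Markers of lung epithelium were partly in place in both groups. The keratin gene Krt8 stood at 1912 ± 33.2 CPM after 4-OHT and 1840.0 ± 12.6 CPM in control, the surfactant genes Sftpc and Sftpa1 had 0 reads in every library, and Nkx2-1, a lung lineage factor gene, was at 4.74 ± 0.522 and 6.51 ± 1.29 CPM (SD, n = 3 each for both genes; edgeR adjusted p of Nkx2-1 = 0.198). Of 7 tested epithelial markers 3 were lower, which is 42.9% against 5.17% of all genes tested, namely Epcam (log2 fold change -0.38), Cldn7 (-0.28) and Cdh1, the E-cadherin gene (-0.14). The summed level of all 10 was 5532 to 5698 CPM after 4-OHT and 5572 to 5647 CPM in control. Most of this sum comes from Krt8, Krt18 and Krt19 (means of 1912, 1556 and 1364 CPM after 4-OHT, against 1840, 1557 and 1324 CPM in control). It therefore says little about the other epithelial markers. Summed mesenchymal markers stayed at 5.57 to 8.48 CPM after 4-OHT and 7.54 to 9.62 CPM in control (6 genes, Lum at 0), endothelial markers at 8.48 to 8.60 and 7.36 to 9.94 CPM (4 genes), and leukocyte markers at 4.92 to 5.77 and 3.26 to 8.90 CPM (5 genes, Cd3e at 0). In such bulk samples fewer cells of a type and less RNA per cell cannot be told apart, and the part of these markers in the changes above was not tested.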

How the data were processed

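The series holds 33 samples, of which the 6 RNA-seq libraries, all of KPL cells, were used, 3 given 4-OHT and 3 control. The count matrix deposited by the authors holds read counts per Ensembl gene, taken here as raw. The largest library total is 1.009 times the smallest. Whether reads had been brought to a common depth before counting was not tested. The authors' comparison table holds log2 fold changes, log2 mean CPM, p-values and FDR, per the file headers. Per the submitters' processing notes the tools were edgeR, bedtools 2.26.0, Bowtie2, Bowtie 1.1.2 and TopHat2 2.1.0 and the genome builds mm10, GRCm38.p6, GRCh37 and hg19, without saying which served these libraries. How reads were counted, and whether by strand, is not given in the sources used here, so reads of overlapping or antisense genes could not be told apart. In RefSeq GRCm38.p6, 5 of the 9 genes overlap a small or long noncoding RNA gene, and 0 reads were counted for the only such gene in the matrix.

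Of 38951 lines, 27 repeats of 12 IDs were kept once. Genes with few reads were removed by filterByExpr (minimum count 10, minimum total 15), which left 13355 genes with 99.7% of the reads. Counts were scaled by TMM and tested in edgeR 4.0.16 (R 4.3.3) with a robust quasi-likelihood F test, two-sided, without a replicate block. Standard errors were taken as the log2 fold change over the square root of F, and intervals are 95%. The procedure was tested on simulated data in which all genes shared a common dispersion. Its changes were placed only in well-counted genes. The smallest of them was slightly larger than that of Thbs1 and clearly larger than that of Smad3, so no recovery rate is at hand for changes as small as that of Smad3. Replicate pairs gave a chi-square of 1.26 to 1.48 per degree of freedom, above the sampling noise, so none were merged. Alternatives were other scalings and filters, DESeq2 1.42.0, limma-voom (limma 3.58.1), a replicate block and leaving out each library. Lists and members were chosen with earlier results of these data known. Besides all 9 members and Lin9, the text names in each list up to 3 called genes with the smallest p, or the most abundant where none was called. It also names the 3 genes with the profile nearest to each called member. Other names were chosen after their values were seen. In the list of induced genes 1 gene is counted but not reported here by name or value. Coordinates come from RefSeq GRCm38.p6. No transcript lengths were used, so levels of different genes were not ranked.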

Additional observations from a re-analysis of the deposited data

How the results depend on the processing

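DESeq2 gave an adjusted p for 8 of the 9 genes and none for Tgfb2. Of 116 values with an adjusted p, the 9 genes each under up to 13 alternatives, 115 kept the side of the threshold, and neither called gene changed direction. The exception was Smad3 in DESeq2 (log2 fold change 0.19, adjusted p = 0.067), so that DESeq2 called 0 of the 8 higher (1 at an unadjusted p under 0.05). The cause was not tested. Over all genes DESeq2 called 362 lower and 208 higher, against 691 and 616 in edgeR. It called 0 higher among the co-receptors, 0 among the other SMAD genes (1 each at an unadjusted p under 0.05) and 1 among inhibitors and turnover. With no low-count filter 0 of the other SMAD genes was higher (edgeR, 1 at an unadjusted p under 0.05). Leaving out 1 library gave 403 to 542 genes called higher, with 403 without control replicate 1. It gave 1 to 3 latency and activation genes lower, with 3 without control replicate 2 and 2 without 4-OHT replicate 1, and 0 to 1 other SMAD genes higher, with 1 only without 4-OHT replicate 3. It gave 0 to 1 inhibitors lower, with 1 without 4-OHT replicate 3, and 1 to 2 induced genes lower, with 1 without 4-OHT replicate 3 or control replicate 2. It gave 1 to 2 activin and BMP genes higher, with 2 without 4-OHT replicate 1 or 3, and 0 to 1 gene of the thrombospondin family higher, with 1 without 4-OHT replicate 3. Without 1 library the difference in the Tgfbr1 read share lay between -1.07 points without control replicate 2 and 0.66 points without control replicate 3, so its sign is not settled, and the differences in the 3 ligand shares also changed sign. Shares per transcript length could not be computed, as no lengths were used. With the replicate block 665 genes were lower and 579 higher, Thbs1 stayed lower (adjusted p = 3.6e-10) and Smad3 higher (0.0047), while 11 induced genes were higher and Actn1 did not pass (0.0504). Same-numbered libraries deviated with correlations of 0.01, 0.03 and -0.04, so the numbers were not taken to pair them, and not every library correlated best with its own number. Tgfb2 and Tgfb3 are limited by their low counts.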
